A study of Homo sapiens with 6 samples.

Results

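This account follows 8 genes of the complement system among the 16390 genes counted in each library. They were chosen by gene symbol as 4 activators (C3, CFB, C1R and C1S) and 4 regulators (SERPING1, CD46, CD55 and CD59), and all 8 had a row in the count tables. Every library came from SW780, an established line of human bladder cancer cells treated by the study as luminal. RC48 (disitamab vedotin) couples an antibody against ERBB2 to a microtubule poison. RNA was sequenced in 3 Control libraries and in 3 libraries of cells kept with RC48 at 25 µg/ml (0 µg/ml in Control), a dose taken from the study's methods and not from the sample labels. The exposure time is not given in the sources used here. Nothing in the labels says whether the replicates were separate cultures. The p-values therefore set differences against the spread between these libraries, which may be technical. A cell line in bulk RNA holds no serum or immune cells, and fewer cells carrying a transcript cannot be told apart from less of it per cell.

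Complement is a cascade of proteases and binding proteins that marks surfaces for uptake and can end in a pore through the membrane. The classical route starts when C1q binds antibody and switches on the proteases C1r and C1s. All routes meet at C3, which is cut and attached to the surface, and factor B (CFB) joins it to form the enzyme that cuts more C3. C1 inhibitor (SERPING1) blocks C1r and C1s. On the cell's own membrane, CD55 takes apart the C3-cutting enzymes, CD46 is the cofactor through which factor I cuts C3b and C4b, and CD59 stops the pore from forming. Most serum complement is made in the liver, but epithelial cells transcribe several components, and antibodies against tumour antigens can recruit the classical route.

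After RC48 exposure, 3 of the 4 activators rose and none of the regulators passed the test. Of the 7 members with enough counts for the test, 3 were called, and these were C3, CFB and C1S, all higher (edgeR's quasi-likelihood test over 13055 genes, Benjamini-Hochberg adjusted p under 0.05). Over all genes tested, 2.21% were called, 1.98% as higher and 0.230% as lower. The median log2 fold change was 1.88 over the 4 activators and 0.19 over the 3 regulators tested, beside 0.02 over all genes tested. No p-value is given for this contrast, because the members were chosen with results of these libraries known. Of the 8 members, 5 had every RC48 library above every Control library in CPM (counts scaled to library size by edgeR's TMM method), namely the 4 activators and CD59. Such a separation was found in 31.5% of all genes tested, upward in 17.4% and downward in 14.1%.

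**Figure D1:**
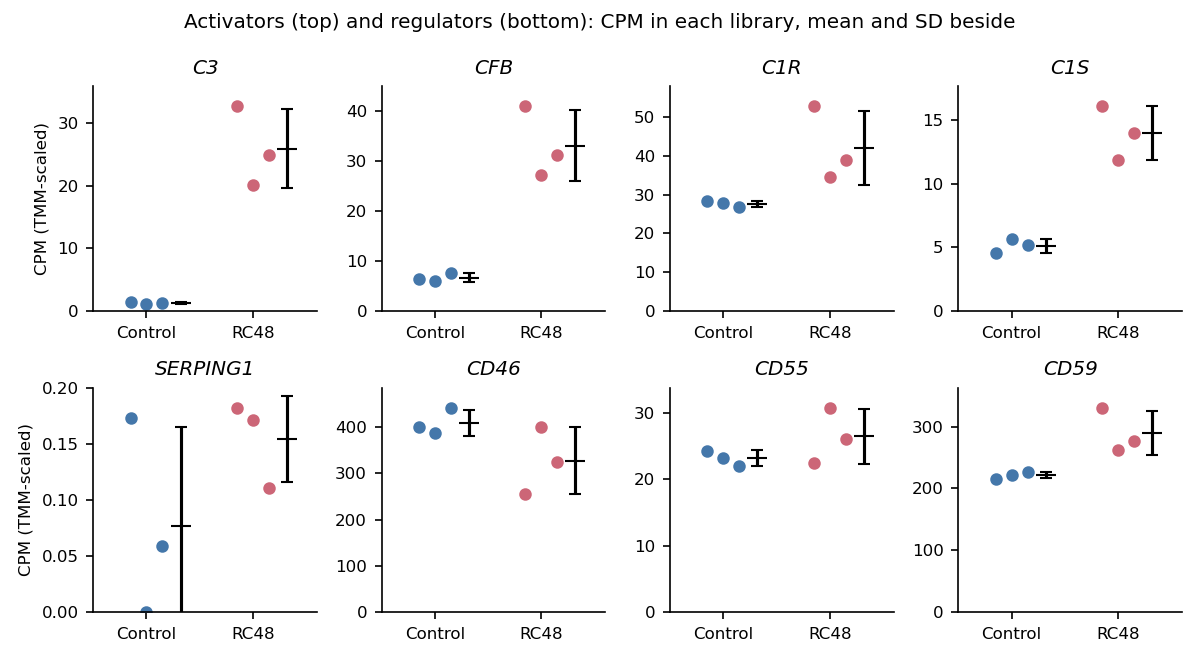
CPM (TMM-scaled, linear axes from 0) of the 4 activators (upper row) and 4 regulators (lower row) in each of the 3 Control and 3 RC48 libraries. Points are libraries, in replicate order within a group, and the bar beside them is the mean with the SD. C3 averaged 1.28 CPM in Control and 25.9 CPM after exposure without overlap, while CD46 and CD55 overlapped between the groups.

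The libraries held 16453233 to 17988030 counts each. Pairs of Control libraries differed by a chi-square per degree of freedom of 1.47 to 11, and pairs of RC48 libraries by 20.7 to 124. The spread was thus wider between RC48 libraries than between Control libraries. The log2 ratio of single RC48 libraries to the Control mean followed the GC content of the transcripts, with Spearman's rho across 13000 genes of 0.741 in RC48 replicate 1, −0.018 in replicate 2 and 0.577 in replicate 3. This touches the comparison directly, since the transcripts of the activators had a GC content of 47.9% to 56.5% and those of the 3 regulators tested 37.7% to 45.5%. Values with a loess correction for GC content are therefore given beside the others, and RC48 replicate 2, which had no such trend, is named where it matters. The luminal markers GATA3 and ERBB2 stood at 148.9 ± 9.99 and 83.0 ± 4.16 TPM in Control (SD, n = 3), with KRT20 at 2.33 ± 0.0971 TPM. FOXA1 went from 80.8 ± 4.30 TPM to 42.7 and 59.7 TPM in RC48 replicates 1 and 3, and UPK2 from 46.5 ± 0.255 to 78.8 and 52.7 TPM. In RC48 replicates 1 and 3, GATA3 stood at 172.15 and 138.74, ERBB2 at 100.35 and 86.33, and KRT20 at 0.49 and 1.11 TPM. The basal marker CD44 was also abundant, at 119.6 ± 3.75 TPM in Control, with KRT5 at 5.56 ± 0.447 and KRT6A at 3.43 ± 0.447 TPM. The basal markers with a row summed to 124.6 to 132.9 TPM in Control and 109.3 to 118.8 TPM after exposure. The leukocyte marker PTPRC and the hepatocyte marker ALB were listed at 0 TPM in every Control library and at no more than 0.05 TPM after exposure. Summed over the 7 leukocyte markers with a row, the level was 240.4 to 284.0 TPM in Control and 222.1 to 261.1 TPM after exposure, most of it LCP1. Over the 5 fibroblast markers it was 212.7 to 242.2 and 158.3 to 215.7 TPM, most of it LUM and COL3A1, with PDGFRB and DCN at or under 0.06 TPM.

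C3, the protein on which all routes converge, rose most among the members. Its gene lies on chromosome 19 (6677704 to 6720650, minus strand, GRCh38.p14). C3 had 26, 19 and 21 counts in Control replicates 1, 2 and 3 and 539, 352 and 449 counts in RC48 replicates 1, 2 and 3. In CPM, this was 1.28 ± 0.205 against 25.9 ± 6.37 (SD, n = 3 each), and the lowest exposed library stood far above the highest Control library. C3 thus rose 20.1-fold, or 4.33 ± 0.25 on the log2 scale (standard error, SE; adjusted p = 3.1e-04, edgeR). From the summed counts alone, the ratio was 20.1 with an exact 95% interval of 15.7 to 26.2, which covers counting error only. The log2 ratio to the Control mean was 3.87 in RC48 replicate 2, the library without a GC trend. With the GC correction, the 3 exposed libraries stood at 4.04, 3.88 and 3.98, closer together than without it.

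Factor B is the protease that C3 recruits in the alternative route. CFB lies on chromosome 6 (31946095 to 31952084, plus strand, GRCh38.p14), next to C2, its relative in the classical route. CFB had 112, 103 and 129 counts in Control and 675, 477 and 562 counts after RC48 exposure. Its level went from 6.68 ± 0.833 to 33.2 ± 7.07 CPM (SD, n = 3 each), a 4.96-fold rise without overlap. The log2 fold change was 2.31 (SE 0.20, edgeR adjusted p = 0.00136) and 2.13 with the GC correction. C3 and CFB did not rise in proportion. C3 had 0.163 to 0.232 counts per count of CFB in Control and 0.738 to 0.799 after exposure, a difference of 2.03 on the log2 scale (exact permutation test, two-sided p = 0.1, the smallest that 3 libraries against 3 allow).

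C1R and C1S encode the paired proteases of the C1 complex and lie side by side on chromosome 12, C1S from 7060718 to 7071032 on the plus strand and C1R from 7080219 to 7092445 on the minus strand (GRCh38.p14). C1S had 79, 98 and 88 counts in Control and 265, 209 and 251 counts after exposure. Its level of 5.14 ± 0.556 CPM became 14.0 ± 2.08 CPM (SD, n = 3 each), a 2.72-fold rise without overlap. The log2 fold change was 1.44 (SE 0.18, edgeR adjusted p = 0.00685) and stayed at 1.42 with the GC correction. C1S was no longer called without Control replicate 1 (log2 fold change 1.36, adjusted p = 0.0680, edgeR) or without Control replicate 3 (1.45, adjusted p = 0.0785, edgeR).
C1R started from a higher level and moved less. It had 491, 479 and 455 counts in Control and 869, 605 and 701 counts after exposure, or 27.6 ± 0.805 against 42.1 ± 9.50 CPM (SD, n = 3 each). The groups did not overlap, but the log2 fold change of 0.61 (standard error 0.18) did not pass the test over all genes (adjusted p = 0.157, edgeR). With the GC correction, it was smaller and called, at 0.37 (SE 0.08, edgeR adjusted p = 0.0341), in a fit that called 7.23% of all genes tested. With the replicate number as a further term this call was lost (0.37, edgeR adjusted p = 0.0959). It was also called without RC48 replicate 1 (0.41, adjusted p = 0.0491, edgeR) and without RC48 replicate 2 (0.73, adjusted p = 0.0233, edgeR). Those 2 fits called 897 and 3726 genes over all, against 288 with all libraries. C1S thus gained on C1R, from 0.161 to 0.205 counts per count of C1R in Control to 0.305 to 0.358 after exposure. On the log2 scale this difference was 0.86 (exact permutation test, two-sided p = 0.1, the smallest possible), with the ratio at 0.345 in RC48 replicate 2. These ratios were chosen after the values were seen.

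**Figure D2:**
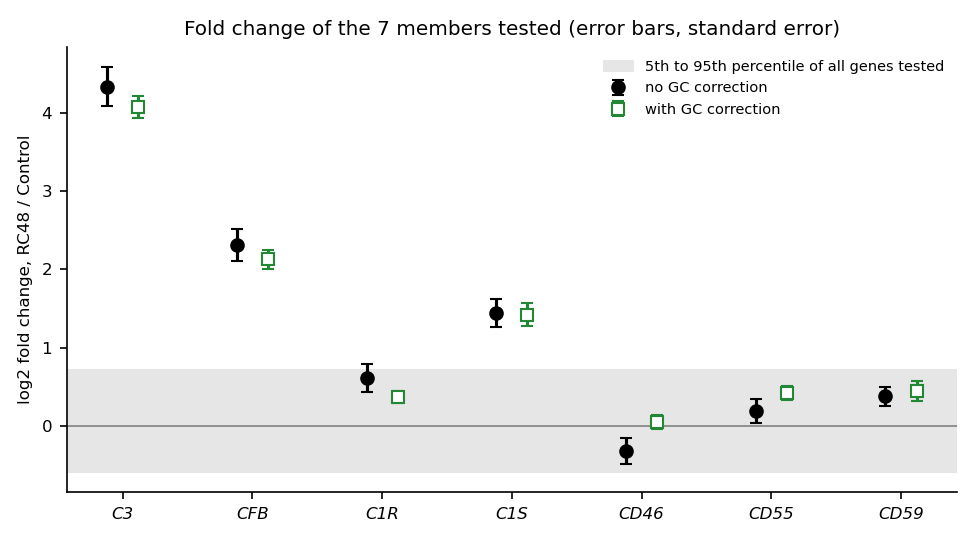
Log2 fold change of RC48 against Control for the 7 members tested, with standard errors, from edgeR without (filled circles) and with (open squares) the correction for GC content. The grey band runs from the 5th to the 95th percentile of all genes tested in the fit without GC correction, −0.59 to 0.72. No such band is drawn for the fit with the correction. C3, CFB and C1S lay above the band in both fits, and CD46 moved from −0.32 to 0.054.

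The regulators showed no call in the fit without GC correction, with 1 of 3 (CD59) at an unadjusted p-value under 0.05 in edgeR, a level reached by 19.1% of all genes tested, and none called by DESeq2. SERPING1, whose product C1 inhibitor is the main brake on C1r and C1s, was at the limit of detection. It had 3, 0 and 1 counts in Control and 3, 3 and 2 counts after exposure and did not enter the test. The summed counts were 4 and 8, and their ratio of 1.98 after scaling had an exact 95% interval of 0.532 to 9.01, so that neither a fall nor a rise was detectable at this depth. SERPING1 lies on chromosome 11 (57597685 to 57614848, plus strand, GRCh38.p14).
CD59, the glycolipid-anchored inhibitor of the pore, lies on chromosome 11 (33703010 to 33736479, minus strand, GRCh38.p14). It had 3739, 3839 and 3849 counts in Control and 5431, 4579 and 4980 counts after exposure. In CPM it was 222 ± 5.25 and 290 ± 35.8 (SD, n = 3 each), without overlap. The log2 fold change of 0.38 (standard error 0.12) did not pass the test (adjusted p = 0.184, edgeR), and was 0.45 with the GC correction (adjusted p = 0.0697, edgeR). Without RC48 replicate 2 it was called (0.45, adjusted p = 0.0369, edgeR), in a fit that called 3726 genes over all.
CD55, or decay-accelerating factor, lies on chromosome 1 (207321678 to 207360966, plus strand, GRCh38.p14). It had 421, 400 and 374 counts in Control and 371, 538 and 469 counts after exposure. The groups overlapped, at 23.2 ± 1.16 and 26.5 ± 4.11 CPM (SD, n = 3 each), and the log2 fold change was 0.19 (SE 0.15, edgeR adjusted p = 0.435). RC48 replicate 1 alone lay below the Control mean. With the GC correction, the 3 exposed libraries stood at log2 ratios of 0.48, 0.41 and 0.37 to the Control mean, and CD55 was called at 0.42 (adjusted p = 0.0320, edgeR), though not with the replicate number as a further term (adjusted p = 0.0729, edgeR).
CD46, the membrane cofactor through which factor I cuts C3b and C4b, was the most abundant member and lies on the same arm of chromosome 1 (207752038 to 207795516, plus strand, GRCh38.p14). It had 6892, 6670 and 7488 counts in Control and 4209, 7002 and 5831 counts after exposure. The groups overlapped, at 409 ± 28.6 and 327 ± 72.1 CPM (SD, n = 3 each), because RC48 replicate 2 stayed at the Control level while replicates 1 and 3 lay below it. The log2 fold change of −0.32 (SE 0.17, edgeR adjusted p = 0.304) turned to 0.054 with the GC correction (adjusted p = 0.732, edgeR). CD46 was called as lower in fits that left out RC48 replicate 2. It stood at −0.50 in edgeR (adjusted p = 0.0406, 3726 genes called over all) and −0.63 in limma on log2(TPM+1) (adjusted p = 0.0322, 2894 genes called). Its transcript had the lowest GC content of the members (37.7%), and the group of 1300 genes with the lowest GC content had a median log2 ratio of −1.0 in RC48 replicate 1, 0.03 in replicate 2 and −0.40 in replicate 3. CD46 itself stood at −0.67, −0.03 and −0.33.

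**Figure D3:**
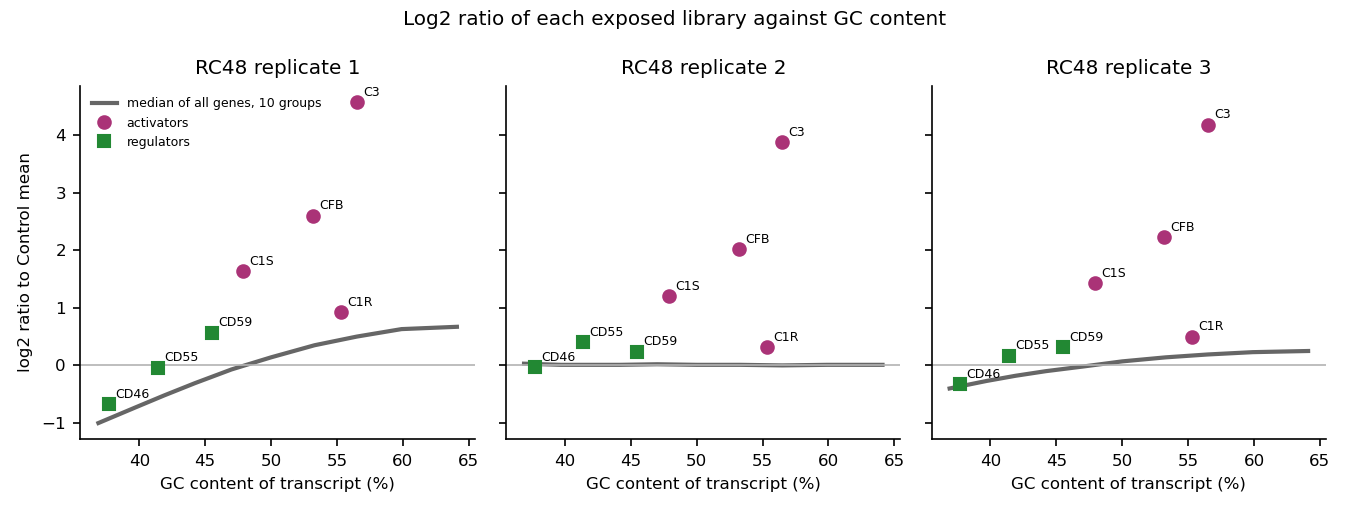
Log2 ratio of single RC48 libraries to the Control mean (vertical) against the GC content of the transcript in percent (horizontal), with activators as circles and regulators as squares. The line joins the medians of all genes in 10 groups of 1300 by GC content. In RC48 replicate 2 the line is flat, and the activators still ran from 0.32 for C1R to 3.87 for C3, above the line as in replicates 1 and 3.

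Across the members, the GC correction narrowed the spread between the 3 exposed libraries by more than 0.1 (log2 SD) for 5 of 7, and C1S stayed at 0.21. The SD of the log2 level fell from 0.35 to 0.08 for C3, from 0.32 to 0.12 for CD46 and from 0.22 to 0.06 for CD55, and that of CD59 went from 0.17 to 0.26. With the correction, 5 of 7 members were called, all higher (the 4 activators and CD55), against 7.23% of all genes in that fit (4.56% called as higher). With the replicate number as a further term, 3 were called (C3, CFB and C1S). The median log2 fold change was then 1.77 over the activators and 0.42 over the regulators. How far the GC trend belongs to the libraries or to the exposure was not tested.

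Levels can be compared between genes only per length, as TPM, a level per transcript length that adds up to the same total in each library. TPM were used for 5 libraries and not for RC48 replicate 2. In Control, the order was CD46 (244.7 ± 30.3 TPM), CD59 (53.3 ± 3.93), C1R (22.3 ± 0.648), CD55 (18.9 ± 1.52), CFB (5.45 ± 0.977), C1S (3.74 ± 0.416), C3 (0.457 ± 0.0709) and SERPING1 (0.0900 ± 0.101; SD, n = 3 each). Neighbours in this order did not overlap between Control libraries, though the values of C3 and SERPING1 rest on few counts. After exposure, RC48 replicates 1 and 3 had 29.3 and 24.4 TPM of CFB, above the 20.8 and 22.8 TPM of CD55, the reverse of their order in Control. Both are libraries with the GC trend. The order per length in RC48 replicate 2 is not known, since its TPM were not used. In CPM, which is not per length, CFB stood at 41.0 and 31.3 and CD55 at 22.5 and 26.1 in RC48 replicates 1 and 3. In RC48 replicate 2, without the trend, CFB had 27.2 CPM and CD55 30.7 CPM. C3 reached 10.5 and 8.48 TPM and overlapped C1S at 10.2 and 9.58 TPM. The membrane regulators CD46, CD55 and CD59 together still outnumbered the 4 activators in every library. Their summed TPM was 9.54 to 10.5 times that of the activators in Control and 2.61 and 3.73 times in RC48 replicates 1 and 3, both libraries with the GC trend. CD46, whose change turned with the GC correction, made up most of that sum. On the CPM scale, which is not per length but covers all libraries, the ratio was 15.6 to 16.9 in Control and 4.27, 7.38 and 5.75 in RC48 replicates 1, 2 and 3.

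**Figure D4:**
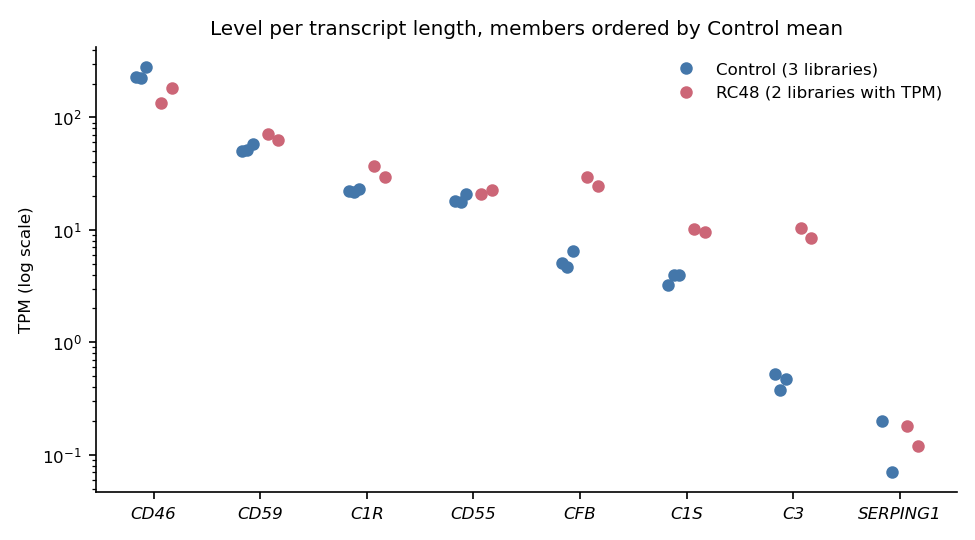
Level of each member in TPM on a log axis, ordered by the Control mean, in 3 Control and 2 RC48 libraries. Points are libraries, and 1 Control library with SERPING1 at 0 cannot be drawn on this axis. C3 rose from 0.38 to 0.52 TPM to 8.48 and 10.5 TPM, into the range of C1S.

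The promoters of CFB, which was called, and of C1R and CD46, which were not, are shown for the motifs they hold. RefSeq promoter windows (GRCh38.p14, 250 bases before to 50 after the start) were at hand for CFB, C1R, CD46, CD55 and CD59, in 10 windows with alternative starts. None was at hand for SERPING1 or for C3 and C1S, so CFB is the only called member searched. Both strands were searched for the κB consensus bound by NF-κB, a STAT site (TTC and GAA with any 3 bases between), an interferon response core (GAAA and GAAA with any 2 bases between) and a C/EBP site (TTGC, any 2 bases, AA). Of all 35116 windows, 11.3% held the κB consensus, 7.66% the STAT site, 3.57% the interferon core and 10.5% the C/EBP site. Sequences run 5′ to 3′ on the gene's strand, with matches in capitals, for CFB at chr6:31945845-31946144 (plus), C1R at chr12:7092396-7092695 (minus) and CD46 at chr1:207751788-207752087 (plus).
CFB: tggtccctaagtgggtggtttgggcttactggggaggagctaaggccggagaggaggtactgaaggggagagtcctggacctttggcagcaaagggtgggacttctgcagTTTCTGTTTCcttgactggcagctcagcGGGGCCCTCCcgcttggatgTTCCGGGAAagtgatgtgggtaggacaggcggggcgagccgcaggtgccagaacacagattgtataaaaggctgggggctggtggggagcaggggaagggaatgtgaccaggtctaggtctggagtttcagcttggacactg
C1R: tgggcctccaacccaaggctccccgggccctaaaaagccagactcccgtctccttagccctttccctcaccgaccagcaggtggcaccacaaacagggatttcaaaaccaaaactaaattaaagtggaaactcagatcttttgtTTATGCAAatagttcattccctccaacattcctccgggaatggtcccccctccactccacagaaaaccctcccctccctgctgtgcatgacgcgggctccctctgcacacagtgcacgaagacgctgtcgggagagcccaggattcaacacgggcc
CD46: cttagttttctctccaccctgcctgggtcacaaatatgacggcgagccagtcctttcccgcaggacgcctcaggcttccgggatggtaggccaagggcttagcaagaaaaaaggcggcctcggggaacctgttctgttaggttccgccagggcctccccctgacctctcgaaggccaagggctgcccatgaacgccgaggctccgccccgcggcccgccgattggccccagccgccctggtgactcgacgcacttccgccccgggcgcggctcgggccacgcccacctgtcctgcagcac
CFB held 3 matches close together, an interferon core starting 140 bases before the start of the gene, the κB consensus at 112 and the STAT site at 92 bases before it. The upstream window of C1R held 1 C/EBP match 106 bases before the start, and its other window a C/EBP and a STAT match. Neither the windows of CD46 nor that of CD55 held a match, and CD59 had STAT or C/EBP matches in 3 of its 4 windows. Its STAT matches are the same site, seen in overlapping windows. These are matches of letters within short windows, and no binding was measured. Any part of these sites in the changes was not tested.

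Outside the 8 members, 51 further complement genes were listed by role, of which 38 had a row and 13 had enough counts for the test. In this list 1 gene was called as higher and 0 as lower, with 6 of 13 at an unadjusted p-value under 0.05 (edgeR). Among these 6, ITGAM, C2 and C4A entered the test only through their counts after exposure, so the 6 are no support for a change. DESeq2 gave a fold change for 38 of the listed genes and called 2, against 676 called over all genes. Over all genes tested, 2.21% were called by edgeR and 19.1% had an unadjusted p-value under 0.05. The median log2 fold change of the 13 listed genes tested was −0.01. The gene called was ITGAM, the alpha chain of complement receptor 3, which binds cut C3 on phagocytes. It had 0, 5 and 0 counts in Control and 69, 54 and 65 counts after exposure, which is 5.12 on the log2 scale (SE 0.64, edgeR adjusted p = 0.00740) and a ratio of the summed counts of 37.3 (exact 95% interval 15.7 to 116). ITGAM entered the test only through its counts after exposure, and its Control level rests on 5 counts of 1 library. Its size therefore moved with the setting, to 8.97 without Control replicate 2 and 1.23 in limma on log2(TPM+1), and leaving out Control replicate 3 ended the call (4.58, edgeR adjusted p = 0.0718). Its beta chain ITGB2 had 3 counts in all Control libraries together and 4 in all exposed libraries.
At the start of the classical and lectin routes, 4 of 16 listed genes were tested and none was called over all genes (3 had an unadjusted p-value under 0.05 in edgeR, against 19.1% of all genes, and DESeq2 called C4A). C1RL, a relative of C1R, averaged 40.9 ± 2.94 CPM in Control against 57.9 ± 9.62 CPM with RC48 (SD, n = 3 each), and its log2 fold change was 0.50 (adjusted p = 0.172, edgeR). The targets of C1s, C2 and C4, were scarce. C2 and C4A entered the test only through their counts after exposure, as ITGAM did, so their p-values are no support for a rise. C2 had 7, 7 and 10 counts in Control and 18, 18 and 17 after exposure, a log2 fold change of 1.12 (adjusted p = 0.111, edgeR). C4A had log2 fold change 2.01 (adjusted p = 0.0948, edgeR) on 17 and 70 summed counts, but its reads are split with the nearly identical C4B and its value is uncertain.
For the later steps the libraries held little. C5 was the only terminal component tested, with 3.92 ± 0.702 CPM in Control against 2.25 ± 0.577 CPM with RC48 (SD, n = 3 each; log2 fold change −0.79, adjusted p = 0.178, edgeR), and C6 and C9 had at most 4 summed counts in a group. Among soluble regulators, clusterin (CLU) was abundant at 644.2 ± 22.6 TPM in Control (SD, n = 3), with a log2 fold change of −0.02 (adjusted p = 0.929, edgeR). C1QBP, a mitochondrial protein that also binds C1q, had 367.8 ± 4.71 TPM in Control (SD, n = 3) and a log2 fold change of −0.27 (adjusted p = 0.248, edgeR), called at −0.37 with the GC correction (adjusted p = 0.0467, edgeR) but not with the replicate number as a further term (adjusted p = 0.0996, edgeR).

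**Figure D5:**
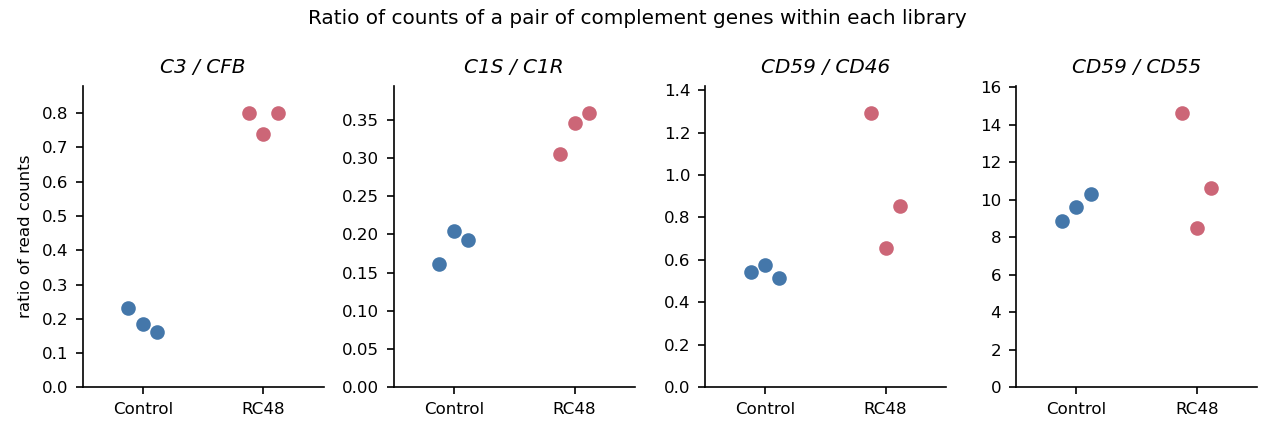
Ratio of read counts of a pair of complement genes within each library (linear axes from 0), for 3 Control and 3 RC48 libraries. C3 per CFB lay at 0.163 to 0.232 in Control and 0.738 to 0.799 after exposure, C1S per C1R and CD59 per CD46 were also higher in all RC48 libraries, and CD59 per CD55 overlapped.

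The genes with the most similar course were found by the distance of log2 CPM (prior count 2), set against the Control mean, over the 6 libraries. The prior count lowers the change of scarce genes. The fold changes given are edgeR's from the main fit, so distances and fold changes are not on the same scale. Nearest to C3 were TNF, CCL20, CXCL3, KLHDC7B and IL4I1, with log2 fold changes of 6.69, 5.13, 5.03, 4.84 and 4.31 and distances of 0.892 to 1.27. TNF, CCL20 and CXCL3 encode secreted inflammatory signals, and CXCL3 shares much of its sequence with CXCL1 and CXCL2. Among the 5 nearest to CFB were TGM2, ZC3H12A, PLA2G4C and MX1, with log2 fold changes of 2.34, 2.19, 3.22 and 2.10 and distances of 0.236 to 0.525. ZC3H12A encodes an RNase that degrades inflammatory transcripts, and MX1 an interferon-induced antiviral GTPase. This likeness is a description over 6 libraries of 2 groups.

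Some members overlap other annotated genes (C11orf91 shares 3541 bases with the CD59 gene and the pseudogene CDCA4P4 1999 bases with CD46), and whether counting used the strand is not given in the sources used here. All values are of mRNA, and neither protein nor deposition of complement was measured.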

How the data were processed

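RNA of 3 Control and 3 RC48-exposed libraries of SW780 was sequenced by the authors, filtered with SOAPnuke, mapped with Bowtie2 and counted per gene with RSEM. Versions and annotation are not given in the sources used here, and the submitters' processing notes name hg38. The deposited values are RSEM's estimated counts without normalization, of which 11.7% to 15.0% per library are not whole, and TPM computed by the authors per gene length and library size. TPM of RC48 replicate 2 was not used here.

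Estimated counts were rounded, filtered with filterByExpr, scaled by TMM, and compared by edgeR's quasi-likelihood test (R 4.3.3, edgeR 4.0.16), RC48 against Control without covariates, with Benjamini-Hochberg adjustment over 13055 genes and a threshold of 0.05. The study's limma on log2(TPM+1) (limma 3.58.1) is an alternative, since it leaves 5 libraries. The standard error is the log2 fold change divided by the root of F. Other alternatives were DESeq2 1.42.0, log2(TPM+0.1), RLE factors, unscaled library sizes, no filter, a minimum of 10 counts per library, the replicate number as a term, a GC correction (loess of log2 CPM on GC content, span 0.3, as an offset) and each library left out. GC content came from the longest GENCODE v29 transcript of 16289 genes (99.4%), matched by NCBI gene number. Log2 levels used a prior count of 2. The procedure was tested on simulated data. Coordinates and promoters are from RefSeq GRCh38.p14.

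The members, lists and tests were chosen with earlier results of these data known. Named were the 8 members, other complement genes that were called or had at least 5 TPM in Control, and the 5 genes nearest to C3 and to CFB. Other complement genes are given as part of their group and were named after their values were seen. Exact permutation tests were two-sided. Intervals and limits cover counting error only. The planned search of protein sequences was not run, and some genes that this rule names are not reported here.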

Additional observations from a re-analysis of the deposited data

How the results depend on the processing

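C3 and CFB were called as higher under each of the 16 alternatives, with a log2 fold change of 2.84 to 4.48 for C3 and of 2.11 to 2.43 for CFB. The lowest value for C3 came from limma on log2(TPM+1), whose pseudocount lowers the change of scarce genes. C1S kept its direction and was called in 14 of 16, from 1.33 to 1.54 with 1 library left out. Over all genes, 288 were called, against 940 with the GC correction, 621 with GC correction and replicate block, 676 with DESeq2, 2894 and 2829 with limma on log2(TPM+1) and log2(TPM+0.1), and 68 (without Control replicate 3) to 3726 (without RC48 replicate 2) with 1 library left out. Of the calls, 258 of 288 were higher, against 593 of 940 with the GC correction, 488 of 676 with DESeq2, and 821 of 2894 and 785 of 2829 with limma.

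Of the members, 3 were called, against 5 with the GC correction, 3 with GC correction and replicate block, 5 and 5 with limma, and 2 (without Control replicate 1 or 3) to 6 (without RC48 replicate 2) with 1 library left out. C1R was called at 0.37 with the GC correction and at 0.56 and 0.58 in limma, and lay at 0.41 to 0.73 with 1 library left out. CD46 was −0.32, against 0.054 with the GC correction, 0.052 with GC correction and replicate block, −0.63 in both limma fits and −0.50 to −0.18 with 1 library left out. CD55 was called at 0.42 with the GC correction, and CD59 lay at 0.27 to 0.45 with 1 library left out. The regulators' median was 0.19, against 0.42 with the GC correction with or without the block. SERPING1 had a log2 fold change of 0.92 without a filter (adjusted p = 0.543, edgeR).

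Of the other complement genes, 1 of 13 was called. With at least 10 counts in every library, 0 were called. That filter left 10 genes and removed ITGAM (4 of 10 had an unadjusted p-value under 0.05 in edgeR). The number was 2 of 13 with the GC correction, 2 of 13 with the replicate block, 2 of 38 in DESeq2, and 5 of 13 in both limma fits. With 1 library left out, it ran from 0 (without Control replicate 3, 6 of 15 at an unadjusted p-value under 0.05 in edgeR) to 4 of 15 (without RC48 replicate 2). Of the 13055 genes, limma called 2894 and 2829, and the fit without RC48 replicate 2 called 3726 genes. CLU stayed near 0, at −0.16 to 0.08 with 1 library left out, and was 0.017, 0.0070 and 0.080 without Control replicate 1, Control replicate 2 and RC48 replicate 2. The cause of these shifts was not tested.

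The replicate numbers did not pair the libraries. Deviations from the group means correlated at 0.002, −0.132 and 0.005 for numbers 1, 2 and 3, and no library correlated best with its own number. The replicate block called 331 genes and the same number of members. With so few counts, SERPING1, C6 and C9 are limited by depth.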

Other observations

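Among the membrane regulators, CD59 gained on CD46, from 0.514 to 0.576 counts per count of CD46 to 1.29, 0.654 and 0.854. The gain was smallest in RC48 replicate 2, the library without a trend on GC content, and the part of that trend in it was not tested. CD59 per count of CD55 overlapped between the groups (8.88 to 10.3 in Control, 8.51 to 14.6 after exposure). These pairs were chosen after the values were seen.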
